A study of Caenorhabditis elegans with 42 samples.

Results

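The HAF genes of Caenorhabditis elegans encode ATP-binding cassette (ABC) transporters of the short form, in which each protein carries a single membrane domain and a single ATP-binding domain and works as a dimer. They were taken as every annotated gene whose name is haf- followed by a number, which gave 8 of the 30304 genes in the deposited tables: haf-1 (C30H6.6), haf-2 (F43E2.4), haf-3 (F57A10.3), haf-4 (W04C9.1), haf-6 (Y48G8AL.11), haf-7 (Y50E8A.16), haf-8 (Y57G11C.1) and haf-9 (ZK484.2). They account for 9 of 34873 transcripts, since haf-9 has the transcripts ZK484.2a and ZK484.2b. The family was chosen by the means of haf-6, which are lower in both adr-2 mutant strains than in N2, so the values of the adr-2 strains against N2 are given as a description, with no test.

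ABC transporters use ATP to move peptides, lipids or other small molecules across membranes of the cell surface and of organelles. In C. elegans HAF-1 exports peptides from mitochondria and acts in the mitochondrial unfolded protein response, HAF-4 and HAF-9 act together as a heterodimer in the membrane of intestinal granules related to lysosomes, and HAF-6 is required for efficient RNA interference. RNA interference and RNA editing both act on double-stranded RNA. ADR-2 is the enzyme that turns adenosine into inosine in such RNA, and ADR-1 is a relative that binds it and regulates ADR-2.

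RNA was sequenced from whole worms grown at 20 degrees, in 30 libraries of embryos or L4 larvae, the last larval stage, and in 12 libraries of young adults. The mutant strains are BB19 (adr-1 allele tm668; 3 embryo and 3 L4 libraries), BB2 (adr-1 allele gv6; 2 and 3), RB886 (adr-2 allele ok735; 3 and 3) and BB3 (adr-2 allele gv42; 3 and 3), and N2 is the wildtype (4 and 3). In young adults a FLAG antibody was used to pull down RNA with tagged ADR-1. HH76 carries adr-1(tm668) and a blmEx1 transgene array with FLAG-tagged genomic adr-1 and the marker rab3::gfp::unc-54, HH134 carries the same array with adr-1(tm668) and adr-2(ok735), and the negative control BB21 carries adr-1(tm668) and adr-2(ok735) without the array, so that HH76 differs from BB21 in adr-2 as well as in the tag. Each of the 3 gave 2 libraries of pulled-down RNA and 2 of input.

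The deposited values are the authors' mean normalised read counts of a strain, beside their fold change against N2 and its adjusted p. They are given without an SD, because values per library were not used. All means of a strain in a table added up to between 14200000 and 17400000 normalised reads, and the tables were scaled separately. The lowest means of BB2 embryos are spaced as for 3 libraries, where the labels give 2. For genes with means of at least 100 and a counting z-value above 2, the z-value behind the deposited p was at the median 0.906 to 1.13 times the one that counting error alone gives, so the deposited p is near that of counting error. The difference between the 2 alleles of a gene put that spread typically at up to 9.73% (adr-1) and 11% (adr-2) in embryos, and at up to 19.2% (adr-1) and 11.7% (adr-2) at L4. The adr-1 comparisons are therefore also given with a z test that assumes a spread of 20% between libraries and is adjusted over all genes. The 20% lies above each of these typical values, furthest in embryos. A change that does not pass this test may therefore pass at a smaller spread. It is a normal approximation on means with an assumed spread, since means allow no exact test. In bulk RNA of whole worms, fewer cells of a type cannot be told apart from less RNA per cell. The targeted genes were lower in their mutants: in the authors' deposited tables adr-2 stood at 6.3% and 5.81% of N2 in RB886 and BB3 embryos and at 8.19% and 8.77% at L4, and adr-1 at 24.2% and 17% in BB19 and BB2 embryos and at 30.9% and 53.7% at L4. Stage markers followed the labels in N2: the 5 larval cuticle and moulting markers summed to 1130 ppm (share of all means of a strain in a table) at L4 and 541 ppm in embryos, and the 7 embryo markers to 480 ppm at L4 and 714 ppm in embryos.

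haf-6 RNA was lower in the adr-2 mutants at both stages. The authors' deposited tables give a mean of 182 normalised counts in RB886 embryos, against 378 in the N2 embryos of the same table. It was 165 in BB3 embryos, against 361 in N2. At L4 the mean was 158 in RB886, against 630 in N2, and 149 in BB3, against 638 in N2. Both adr-2 alleles thus lay at about the same level, 48.2% and 45.7% of N2 in embryos and 25.1% and 23.3% of N2 at L4, with log2 fold changes of −1.05 and −1.13 in embryos and −2.0 and −2.10 at L4.

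Among genes with an N2 mean of at least 100, haf-6 had rank 6 from the lowest fold change of 10047 in RB886 embryos, rank 5 of 9914 in BB3 embryos, rank 7 of 11018 in RB886 at L4 and rank 3 of 11064 in BB3 at L4. The authors also list haf-6 by name, among 17 genes lower in the adr-2 embryos and among 44 lower at L4, and those lists hold no other haf gene. These values chose the family and are not evidence for it. Germline and intestine markers, for the tissues of the worm in which haf-6 is known to act, stood as follows beside them. The 5 germline markers summed to 419 ppm in RB886 embryos, against 348 in N2, 356 in BB3 embryos, against 348 in N2, 583 in RB886 at L4, against 576 in N2, and 572 in BB3 at L4, against 576 in N2. The 7 intestine markers summed to 519 ppm in RB886 embryos, against 579 in N2, 602 in BB3 embryos, against 578 in N2, 2050 in RB886 at L4, against 1990 in N2, and 2020 in BB3 at L4, against 1990 in N2. No marker of either list was at 0. The 5 larval cuticle and moulting markers summed to 1520 ppm in RB886 at L4 and 1260 ppm in BB3 at L4, against 1130 in N2, and the part of the 3 marker lists in the haf-6 values was not tested.

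**Figure D1:**
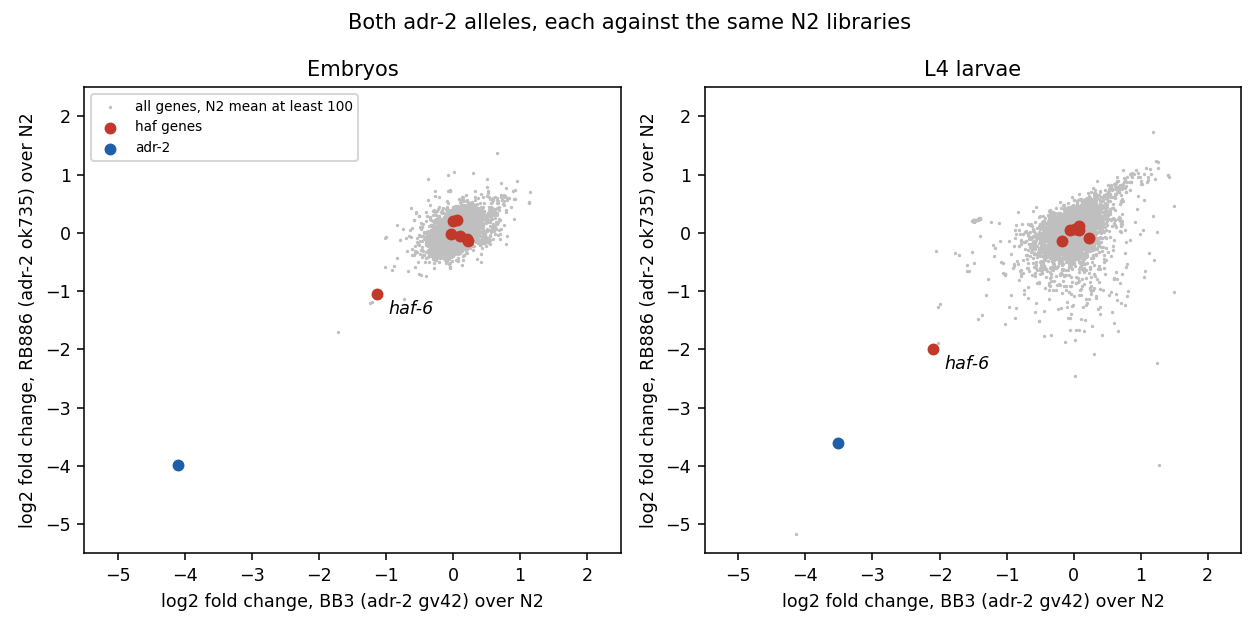
Each point is a gene with an N2 mean of at least 100, placed by its log2 fold change over N2 in BB3 (horizontal axis) and in RB886 (vertical axis), in embryos (left) and L4 larvae (right); red points are haf genes and the blue point is adr-2. haf-6 sits at −1.13 and −1.05 in embryos and at −2.10 and −2.0 at L4, apart from the other haf genes near 0; both axes share the N2 libraries.

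The stage difference of haf-6 came with a stage difference in N2. The N2 mean of haf-6 lay between 581 and 648 normalised counts in the L4 tables and between 361 and 378 in the embryo tables, whereas the adr-2 mutants stood between 149 and 158 at L4 and between 165 and 182 in embryos. RB886 had a difference between the log2 fold changes (L4 minus embryos) of −0.94 and BB3 one of −0.97. Embryo and L4 tables were normalised separately, so levels set across them have no test.

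In the adr-1 mutants haf-6 RNA stood nearer to the N2 level. By the authors' deposited tables haf-6 stood at 366 normalised counts in BB19 embryos, against 361 in N2 (fold change 1.02, adjusted p = 1), and at 713 in BB19 at L4, against 648 in N2 (1.10, adjusted p = 0.0178). The authors give 327 in BB2 embryos, against 374 in N2 (0.874, adjusted p = 0.00146), and 471 in the libraries labelled BB2 at L4, against 581 in N2 (0.809, adjusted p = 0.023). BB19 and BB2 therefore lay on opposite sides of N2 at L4, whereas in embryos BB19 was at about the N2 level and BB2 below it. With a spread of 20% between libraries neither strain passed, with adjusted p-values from 0.725 to 0.995 and 95% intervals of the fold change of 0.744 to 1.38 and 0.794 to 1.52 in BB19 and of 0.615 to 1.24 and 0.584 to 1.12 in BB2, in embryos and at L4. Under the same spread BB19 was 1.36 times BB2 at L4 (95% interval 0.979 to 1.88, adjusted p of 0.496) and 1.16 times BB2 in embryos (0.802 to 1.68, adjusted p of 1).

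Ordered from high to low, haf-6 in embryos ran from BB19 (102% of N2) through N2 to BB2 (87.4%), RB886 (48.2%) and BB3 (45.7%), and the order at L4 was the same, with BB19 at 110% and BB2 at 80.9%. BB19, N2 and BB2 were not separated beyond a spread of 20%. RB886 and BB3 were not separated either, with RB886 at 1.06 times BB3 in embryos (95% interval 0.75 to 1.49) and 1.07 times at L4 (0.761 to 1.52).

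The L4 libraries labelled BB2 departed from BB19 in adr-2 as well. The authors' deposited table has adr-2 at 718 normalised counts in them, against 1130 in N2 (63.8% of N2, adjusted p = 1.13e-29), and at 1310 in BB19 at L4, against 1260 in N2 (104%, adjusted p = 0.127). The deposited p of haf-6 in BB2 at L4 was 0.00762, where counting error alone gives 4.54e-09, so its z-value was 0.455 of the counting one. A ratio under 0.5 occurred in 2.31% of the 6481 genes compared in that table. For adr-2 in the same libraries the z-value was 0.704 of the counting one. The targeted gene adr-1 stood at 53.7% of N2 in these BB2 libraries, against 30.9% in BB19 at L4 and 17% in BB2 embryos. Every BB2 value at L4 comes from these libraries, and means do not show whether they differ among themselves. Whether the lower adr-2 RNA or a difference among the BB2 libraries bears on haf-6 was not tested.

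**Figure D2:**
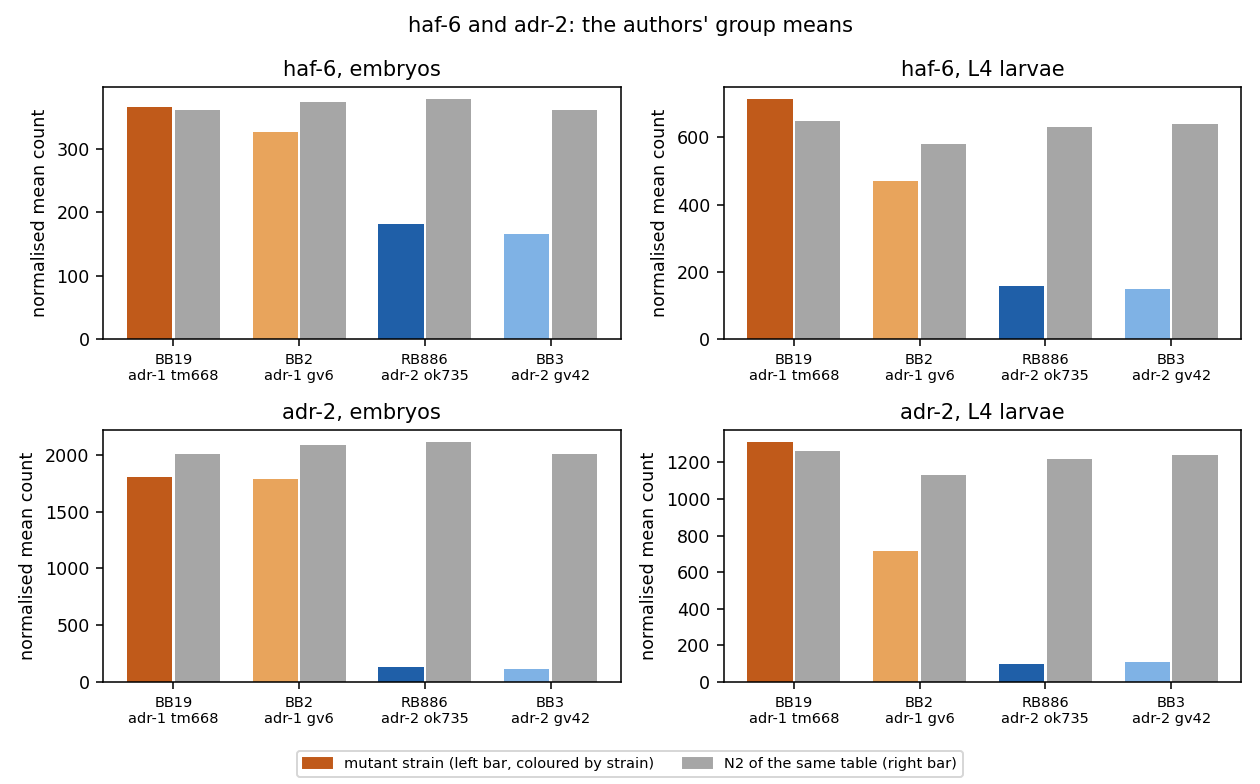
Bars give the authors' normalised mean counts of haf-6 (top) and adr-2 (bottom) in each mutant strain (left bar of a pair) and in N2 of the same table (right bar), in embryos and L4 larvae; vertical axes start at 0 and there are no error bars, since the deposited values are means. haf-6 is at 182 and 165 in RB886 and BB3 embryos and at 158 and 149 at L4, and BB2 lies below N2 for both genes at both stages, at L4 with 471 and 581 for haf-6 and 718 and 1130 for adr-2 in BB2 and N2.

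The genes around haf-6 stood near N2 in the adr-2 strains. In the gene order of the WBcel235 annotation, used here for neighbours only, 3 protein-coding genes on either side of haf-6 on chromosome I are aps-3, rpl-17, Y48G8AL.7, smg-2, Y48G8AL.5 and Y48G8AL.1. From the authors' deposited tables, the log2 fold changes of smg-2, an RNA helicase of nonsense-mediated decay, were 0.15 and 0.06 in RB886 and BB3 embryos and 0.06 and −0.07 at L4. Those of aps-3, a subunit of the AP-3 sorting complex, were −0.19 and −0.02 in embryos and −0.23 and −0.13 at L4. Y48G8AL.7 overlaps haf-6 in that annotation and stood at 0.16 and −0.13 in embryos and at 0.20 and 0.13 at L4. The sources used here do not say whether counting used strand, so reads from the overlap of Y48G8AL.7 and haf-6 may have been counted for either. For the other neighbours the values were −0.22, 0.02, 0.12 and −0.12 for rpl-17, 0.00, 0.01, −0.03 and −0.01 for Y48G8AL.5 and 0.14, 0.10, 0.03 and 0.02 for Y48G8AL.1, in RB886 embryos, BB3 embryos, RB886 L4 and BB3 L4.

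The genes with profiles most like that of haf-6 were named by their log2 fold changes. Likeness was the root mean square difference of the 8 log2 fold changes (4 strains, 2 stages) from those of haf-6, over 10179 genes with an N2 mean of at least 50 at both stages. The nearest was rncs-1, a noncoding RNA with a long double-stranded stem that can inhibit Dicer, at 0.589. The authors' deposited tables put rncs-1 at −1.13 and −0.74 in RB886 and BB3 embryos and at −1.47 and −0.88 at L4, and at −0.53 and −0.36 in BB19 and BB2 embryos and −0.08 and −0.99 at L4. tag-257 followed at 0.674, with −0.38 and −0.57 in the adr-2 embryos and −0.70 and −1.03 at L4, and −0.05 and −0.17 in the adr-1 embryos and −0.02 and −0.21 at L4. C06E2.1 (0.694), Y15E3A.5 (0.751) and R11A5.3 (0.753) were the next. R11A5.3 was near haf-6 in RB886 at L4 (−2.15) but not in BB3 (−0.99). Within the family, haf-3 and haf-7 differed by 0.0765 and haf-4 and haf-9 by 0.118. Every other haf gene lay between 1.13 (haf-2) and 1.26 (haf-4) from haf-6.

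Outside haf-6, no haf gene moved by as much as 1.5-fold in any of the 8 comparisons. The fold changes of the other 6 detected genes lay between 0.833 and 1.44 in the adr-1 strains and between 0.891 and 1.17 in the adr-2 strains. The median log2 fold change of the 7 detected haf genes was 0.02 and −0.09 in BB19 and BB2 embryos, where the median of all genes with an N2 mean of at least 10 was −0.06 and −0.03. At L4 it was 0.11 and 0.19 in BB19 and BB2, against 0.02 and −0.02 for all genes. Medians in the adr-2 strains were −0.05 and 0.06 in RB886 and BB3 embryos and 0.05 and 0.02 at L4, against 0.00, 0.02, −0.01 and −0.01 for all genes.

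**Figure D3:**
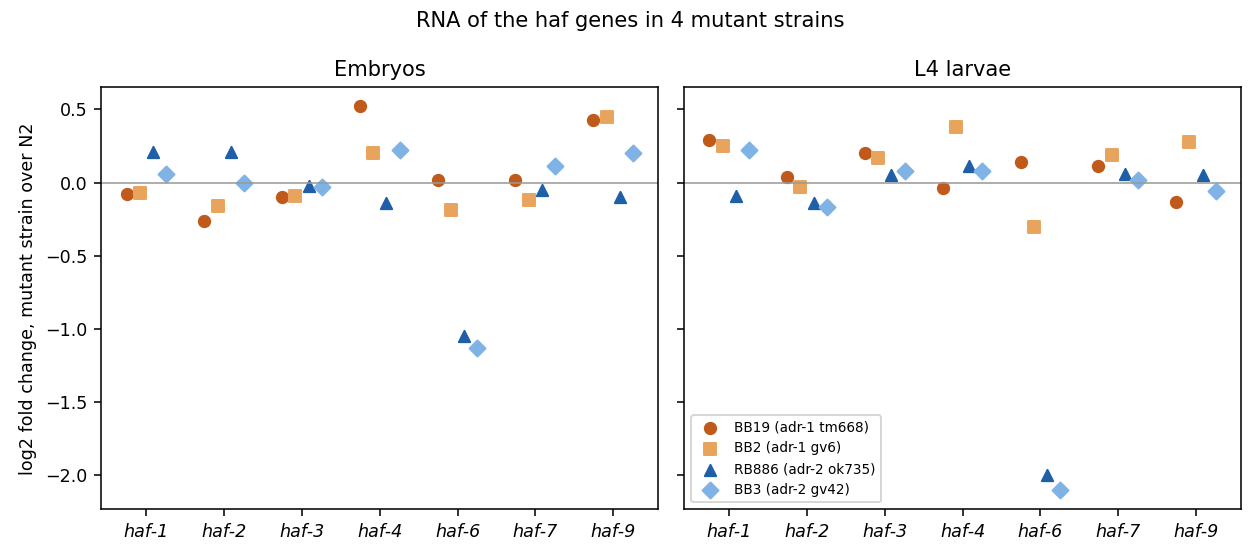
Each symbol is the log2 fold change over N2 (vertical axis) of a haf gene (horizontal axis) in a mutant strain, from the authors' deposited tables, in embryos (left) and L4 larvae (right); symbols and colours mark the 4 strains, and haf-8 is left out because its means are 0 or near it. haf-6 in RB886 and BB3 lies between −1.05 and −2.10, and all other points lie between −0.30 and 0.52.

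haf-4 and haf-9, the partners in intestinal granules, stood higher in adr-1 mutant embryos. The authors' deposited tables give haf-9 (ZK484.2a) a mean of 1250 normalised counts in BB19 embryos, against 924 in N2 (log2 fold change 0.43, adjusted p = 3.94e-32), and 1310 in BB2 embryos, against 957 in N2 (0.45, adjusted p = 2.32e-40). For haf-4 the authors give 682 in BB19 embryos, against 474 in N2 (0.52, adjusted p = 7.42e-25), and 565 in BB2 embryos, against 491 in N2 (0.20, adjusted p = 0.000292). Both genes thus passed the deposited test in both alleles. With a spread of 20% between libraries none of the 4 values passed: adjusted p was 0.25 and 0.936 for haf-4 and 0.417 and 0.451 for haf-9 in BB19 and BB2. The 95% interval of the fold change was 1.06 to 1.95 for haf-4 and 0.999 to 1.83 for haf-9 in BB19, and 0.813 to 1.63 and 0.971 to 1.93 in BB2.

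Markers of 3 tissues were mostly called higher in the same embryos, and the other marker lists were not. Of 7 intestine markers, 4 were called higher and 1 lower in each adr-1 strain in embryos. The medians, over the 6 with an N2 mean of at least 10, were 0.40 in BB19 and 0.18 in BB2. The means of all 7 summed to 760 and 699 ppm, against 578 in N2 of either table. Of 5 neuron markers 4 were called higher and none lower in each, with medians of 0.56 and 0.45 and sums of 308 and 318 ppm, against 219 in N2. All 4 muscle markers were called higher in each, with medians of 0.38 and 0.14 and sums of 7120 and 6360 ppm, against 5240 and 5230 in N2. Of 5 germline markers none was called higher, and 5 in BB19 and 4 in BB2 were called lower. Of 5 larval cuticle and moulting markers 1 was higher and 1 lower in BB19, and 0 and 4 in BB2. Of 7 embryo markers none was higher, and 2 in BB19 and 3 in BB2 were lower. Of 4 sperm markers none was called in BB19 and 1 was lower in BB2. Of all genes 13.2% and 18.7% were called higher in BB19 and BB2 embryos and 16.8% and 16.7% lower. No marker of these lists was at 0, although the lowest intestine marker had means of 2.40 in BB19 and 2.13 in BB2 embryos, against 1.55 and 1.60 in N2. Their part in the change of haf-4 and haf-9 was not tested.

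At L4 haf-4 and haf-9 lay below N2 in BB19 and above it in BB2. By the authors' deposited tables haf-9 was at 3250 normalised counts in BB19, against 3570 in N2 (log2 fold change −0.13, adjusted p = 1.61e-12), and at 3900 in the libraries labelled BB2, against 3200 in N2 (0.28, adjusted p = 2.83e-46). For haf-4 the authors give 1550 in BB19, against 1600 in N2 (−0.04, adjusted p = 0.0679), and 1860 in BB2, against 1430 in N2 (0.38, adjusted p = 1.62e-38). BB19 was 0.748 times BB2 for both genes, a difference that did not pass with a spread of 20% (95% interval 0.542 to 1.03, adjusted p of 0.532 for haf-4, and 0.543 to 1.03, adjusted p of 0.531 for haf-9). Nor did the change of stage within BB19, where the log2 fold change at L4 minus that in embryos was −0.57 for each (95% interval −1.21 to 0.07, with an adjusted p of 0.478 for haf-4 and 0.471 for haf-9). Of the intestine markers 2 were called higher and 2 lower in BB19 at L4, and 6 higher and none lower in BB2, with medians of −0.07 and 0.17. Of all genes 32.3% and 34.6% were called there in either direction. Of 5 larval cuticle and moulting markers 3 were higher and 2 lower in BB19 and all 5 higher in BB2, with medians of 0.77 and 0.96. Their part in the values of haf-4 and haf-9 was not tested.

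In the adr-2 strains haf-4 and haf-9 stood within 1.17-fold of N2. The authors' deposited tables have haf-4 at 452 normalised counts in RB886 embryos, against 497 in N2 (fold change 0.91), and at 554 in BB3 embryos, against 474 in N2 (1.17). haf-9 stood at 901 in RB886 embryos, against 969 in N2 (0.93), and at 1060 in BB3 embryos, against 924 in N2 (1.15). At L4 the fold changes were 1.08 and 1.06 for haf-4 and 1.04 and 0.96 for haf-9 in RB886 and BB3. Over the 8 comparisons haf-9 had rank 30 of 10178 genes by nearness to haf-4, and haf-4 had rank 80 by nearness to haf-9, as a description of profiles that share their N2 libraries.

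The transcripts of haf-9 kept a like ratio. ZK484.2b had between 0.323 and 0.357 of the mean of ZK484.2a in the mutant strains and between 0.323 and 0.35 in N2. Their log2 fold changes differed most in BB2 embryos, where ZK484.2a stood at 0.45 and ZK484.2b at 0.50 in the authors' deposited table. Both are transcripts of 1 gene, so their counts may share reads.

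**Figure D4:**
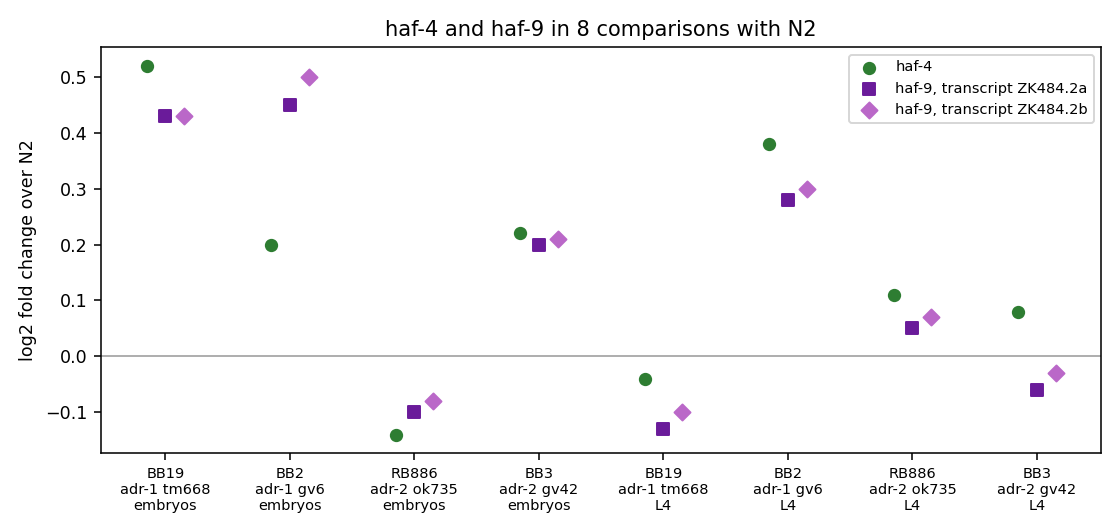
Symbols give the log2 fold change over N2 (vertical axis) of haf-4 and of both haf-9 transcripts in each of the 8 comparisons (horizontal axis), from the authors' deposited tables. The 3 symbols lie on the same side of 0 in 7 comparisons, from 0.52 for haf-4 in BB19 embryos to −0.14 for haf-4 in RB886 embryos; in BB3 at L4 haf-4 is at 0.08 and the haf-9 transcripts at −0.06 and −0.03.

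haf-1, the mitochondrial peptide exporter, was higher at L4 in both adr-1 alleles by the deposited test, and in neither with a spread of 20% (adjusted p of 0.798 in BB19 and 0.833 in BB2). The authors' deposited tables give 365 normalised counts in BB19 at L4, against 298 in N2 (log2 fold change 0.29, adjusted p = 7.62e-06), and 317 in BB2, against 267 in N2 (0.25, adjusted p = 0.000171). These BB2 libraries are those in which adr-1 stood at 53.7% of N2. In embryos the authors give 428 in BB19, against 454 in N2 (adjusted p = 0.23), and 447 in BB2, against 471 in N2 (adjusted p = 0.325). In the adr-2 strains it was at 552 in RB886 embryos, against 476 in N2, at 473 in BB3 embryos, against 454 in N2, at 272 in RB886 at L4, against 289 in N2, and at 342 in BB3 at L4, against 293 in N2. At L4 the mean of RB886 was therefore below that of N2 and the mean of BB3 above it, with fold changes of 0.939 and 1.17, given as a description. The larval cuticle and moulting markers given above moved at L4 as well, and their part in the haf-1 values was not tested.

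haf-2 and haf-3 were lower in both adr-1 alleles in embryos by the deposited test. The authors' deposited tables have haf-2 at 456 normalised counts in BB19 embryos, against 547 in N2 (log2 fold change −0.26, adjusted p = 2.33e-05), and at 506 in BB2 embryos, against 567 in N2 (−0.16, adjusted p = 0.00134). At L4 the authors give haf-2 as 872 in BB19, against 846 in N2 (adjusted p = 0.476), and 742 in BB2, against 759 in N2 (adjusted p = 0.922). The authors' values for haf-3 were lower in embryos, at −0.10 in BB19 (adjusted p = 0.005) and −0.09 in BB2 (adjusted p = 0.00387), and higher at L4, at 0.20 in BB19 (adjusted p = 6.05e-11) and 0.17 in BB2 (adjusted p = 5.92e-09). In the adr-2 strains the fold changes of haf-2 were 1.15 and 0.999 in RB886 and BB3 embryos and 0.909 and 0.891 at L4, and those of haf-3 were 0.986 and 0.982 in embryos and 1.03 and 1.06 at L4. With the median log2 fold change of genes with means of at least 100 subtracted, which was −0.07 in BB19 embryos and −0.08 in BB2 embryos, haf-3 was at −0.03 and −0.01. With a spread of 20% neither gene passed in embryos or at L4 (adjusted p from 0.819 to 1). The 5 germline markers were lower in the same embryos, all 5 in BB19 and 4 in BB2, where 16.8% and 16.7% of all genes were called lower. The markers summed to 278 and 302 ppm, against 348 in N2, and none was at 0. Their part in the values of haf-2 and haf-3 was not tested.

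haf-7 did not pass the deposited test in 3 of the 4 adr-1 comparisons, and haf-8 was hardly detected. By the authors' deposited tables haf-7 was at 211 normalised counts in BB19 embryos, against 208 in N2 (adjusted p = 1), and at 198 in BB2 embryos, against 215 in N2 (adjusted p = 0.269). At L4 the authors give 271 in BB19, against 250 in N2 (adjusted p = 0.317), and 256 in BB2, against 224 in N2 (log2 fold change 0.19, adjusted p = 0.00343). Its fold changes in RB886 and BB3 were 0.967 and 1.08 in embryos and 1.04 and 1.01 at L4. haf-8 was listed at 0 in N2 in all 8 tables and in all mutants except BB3 embryos, with a mean of 0.295, and BB19 at L4, with a mean of 0.392, so no fold change is given for it.

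The deposited test called 4 to 6 haf genes in each adr-1 comparison. By the authors' deposited adjusted p under 0.05, haf-4 and haf-9 were higher and haf-2 and haf-3 lower in BB19 embryos, where 13.2% of all genes tested were called higher and 16.8% lower. In BB2 embryos haf-4 and haf-9 were higher and haf-2, haf-3 and haf-6 lower, beside 18.7% of all genes higher and 16.7% lower. At L4 4 of 8 haf genes tested were called in BB19, beside 32.3% of all genes, with haf-1, haf-3 and haf-6 higher and haf-9 lower. In BB2 at L4 6 of 7 were called, beside 34.6% of all genes, with haf-1, haf-3, haf-4, haf-7 and haf-9 higher and haf-6 lower. haf-9 was thus on opposite sides of N2 at the 2 stages in BB19. The shares of all genes, here and throughout, include genes with low means, whereas every haf gene called had means above 100. Of 9914 genes with an N2 mean of at least 100 in BB19 embryos, 6704 also had such a mutant mean and a counting z-value above 2. In BB2 at L4 these numbers were 10753 and 6481. Whether haf genes were called more often than genes of like means was not tested.

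For the adr-2 strains, which chose the family, the deposited call is given without a reading. It marked haf-1 and haf-2 as higher and haf-6 as lower in RB886 embryos (9.27% of all genes higher and 8.93% lower), and haf-4 and haf-9 as higher and haf-6 as lower in BB3 embryos (10.4% and 5.83%). At L4 it marked haf-4 as higher and haf-2 and haf-6 as lower in RB886 (17.5% of all genes called in either direction), and haf-1, haf-3 and haf-4 as higher and haf-2 and haf-6 as lower in BB3 (16.9%).

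With a spread of 20% between libraries no haf gene was called in any adr-1 comparison. In embryos the 20% lies above the 9.73% that the adr-1 alleles gave, so the loss of calls there rests on the assumed spread. Whether calls would stay at a smaller spread was not tested. The share of all genes called was then 2.84% and 5.10% in BB19 and BB2 embryos and 5.67% and 5.96% at L4, and the unadjusted p was under 0.05 for 1 haf gene, haf-4, in BB19 embryos and for none in the other 3.

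In N2, haf-4 and haf-9 were the members with the highest ratio of L4 to embryo level. As a share of all means in a table, haf-9 had 226 ppm at L4 and 55.7 in embryos, a ratio of 4.06, and haf-4 had 101 and 28.6, a ratio of 3.54. The 7 intestine markers summed to 1990 ppm in N2 at L4 and 578 in embryos, and their part in the haf-4 and haf-9 levels was not tested. haf-6 had 41 ppm at L4 and 21.8 in embryos, haf-2 had 53.5 and 33, and haf-7 had 15.8 and 12.5. haf-1 and haf-3 had lower shares at L4, with 18.9 and 27.4 for haf-1 and 88.6 and 102 for haf-3. The tables of the stages were normalised separately and no test was made; levels are not compared between genes, since transcript lengths were not used here.

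RNA of haf-7 and haf-6 was pulled down with ADR-1 in young adults. The authors' deposited table for HH76, with ADR-2 present, lists 1237 bound genes, among them haf-7 at a log2 fold change of 4.20 over BB21 (SE 0.787, adjusted p = 1.78e-06). The table the authors deposited for HH134, without ADR-2, lists 1215, with haf-7 at 3.71 (SE 0.871, adjusted p = 0.000529) and haf-6 at 1.02 (SE 0.252, adjusted p = 0.00157). haf-7 was thus recovered 18.4-fold over the control with ADR-2 and 13.1-fold without it, and haf-6 2.03-fold without ADR-2. Among the genes whose log2 value had a standard error under 10, haf-7 had rank 105 of 1073 in HH76 and rank 136 of 1075 in HH134, where haf-6 had rank 894, and the medians of these genes were 2.06 and 1.84.

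Both lists contain bound genes alone, so the other haf genes, and haf-6 in HH76, have no value there. Whether haf-6 or haf-7 differs between HH76 and HH134 was not tested. The share of all genes in these lists was 3.97% (HH76) and 3.89% (HH134), beside 1 and 2 of the 8 haf genes. The lists share 828 genes, 66.9% of the HH76 list and 68.1% of the HH134 list, haf-7 among them. The adr-2 allele of BB21 and HH134 is that of RB886, in which haf-6 was lower in embryos and at L4, and the sources used here do not say how the input libraries entered the log2 fold change. haf-7, bound in both strains, had fold changes between 0.921 and 1.14 in the 8 comparisons of mutants with N2.

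**Figure D5:**
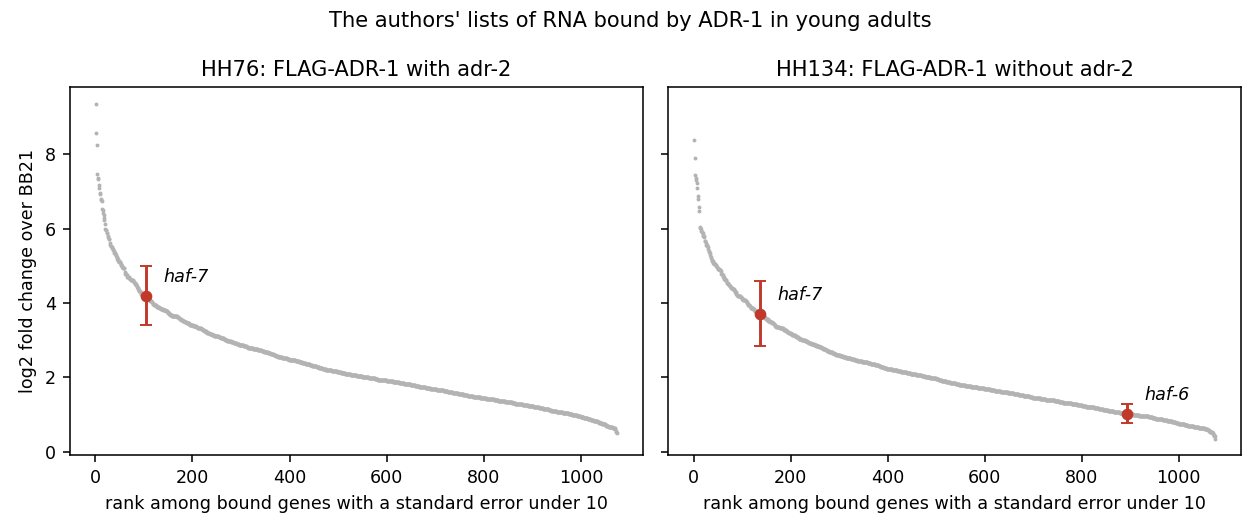
Grey points are genes of the authors' lists of bound RNA, ordered by log2 fold change over BB21 (vertical axis) and ranked from the highest (horizontal axis), for HH76 (left) and HH134 (right), with genes of a standard error of 10 or more left out; red points are haf genes with their standard errors. haf-7 lies at 4.20 and 3.71, above the medians of 2.06 and 1.84, and haf-6 lies at 1.02 in HH134.

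Of 52 other ABC transporter genes, the deposited test called members in both directions in all 8 comparisons. With a spread of 20% between libraries at most 5 were called in a comparison. In BB19 embryos 17 were called higher and 12 lower and in BB2 embryos 16 and 17. The median log2 fold changes were 0.03 and −0.07, over the 42 and 43 members with an N2 mean of at least 10. Of all genes 13.2% and 18.7% were called higher there and 16.8% and 16.7% lower. In RB886 embryos 21 were higher and 5 lower and in BB3 embryos 20 and 2 (medians 0.10 and 0.06), where 9.27% and 10.4% of all genes were called higher. At L4 the numbers were 19 higher and 20 lower in BB19, 20 and 21 in BB2, 3 and 8 in RB886 and 7 and 9 in BB3. Of all genes 32.3%, 34.6%, 17.5% and 16.9% were called there in either direction. The authors' deposited tables have pgp-14, a P-glycoprotein, at 489 normalised counts in BB19 embryos, against 216 in N2 (log2 fold change 1.18, adjusted p = 1.55e-82), and at 455 in BB2 embryos, against 224 in N2 (1.02, adjusted p = 1.52e-64). It also passed with a spread of 20% in both (adjusted p of 0.000111 and 0.00433). Under that spread 5 of the 52 were called higher in BB19 embryos, 4 in BB2, 1 in RB886 and 3 in BB3, with none lower, beside 2.84%, 5.10%, 0.214% and 0.581% of all genes in either direction. Of all genes, 626 were then higher and 63 lower in BB19 embryos, 1205 and 39 in BB2, 35 and 17 in RB886 and 122 and 20 in BB3. At L4 3 were then higher and 1 lower in BB19, 0 and 5 in BB2, 0 and 3 in RB886 and 0 and 0 in BB3, beside 5.67%, 5.96%, 1.86% and 1.78% of all genes. pmp-1, of the peroxisomal transporter family, stood at 0.75 and 0.73 in BB19 and BB2 embryos, and wht-9, of the white family, at −0.77 and −0.70 in BB19 and BB2 at L4. With a spread of 20% pmp-1 passed in BB19 alone (adjusted p of 0.0408, against 0.0785 in BB2). Under the same spread wht-9 passed in neither (adjusted p of 0.052 and 0.102). pgp-3 was in both lists of RNA bound by ADR-1, at 2.61 (SE 0.826) in HH76 and 2.56 (SE 0.867) in HH134.

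Genes of RNA interference, the process in which haf-6 acts, were by the deposited test called lower more often than higher in the adr-1 embryos and higher, with none lower, in the adr-2 embryos. The lower calls in the adr-1 embryos and the higher calls in the adr-2 embryos were lost with a spread of 20%, under which 1 gene was higher and none lower in BB19 and in BB2 embryos and none was called in RB886 or BB3 embryos or in any strain at L4. Of 20 genes found, 1 was called higher and 11 lower in BB19 embryos and 1 and 10 in BB2 embryos (medians −0.11 in each), where 16.8% and 16.7% of all genes were called lower. In RB886 embryos 8 were higher and none lower and in BB3 embryos 7 and none (median 0.05 in each), where 9.27% and 10.4% of all genes were called higher. The 5 germline markers had medians of −0.31 and −0.34 in BB19 and BB2 embryos. In RB886 and BB3 embryos their medians were 0.26 and 0.12, and the part of these markers in the RNA interference values was not tested. At L4 the RNA interference calls were 9 higher and 2 lower in BB19, 2 and 6 in BB2, 3 and 0 in RB886 and 2 and 2 in BB3. Of all genes 32.3%, 34.6%, 17.5% and 16.9% were called in either direction in these comparisons. All these shares include genes with low means, so they do not compare genes of like means. From the authors' deposited tables, sid-1, the double-stranded RNA importer, was at 456 normalised counts in RB886 embryos, against 336 in N2, and at 400 in BB3 embryos, against 320 in N2 (log2 fold changes 0.44 and 0.32, adjusted p = 3.86e-13 and 6.17e-07). mut-2, the nucleotidyltransferase also named rde-3, stood at 0.30 and 0.19 in RB886 and BB3 embryos, and the exonuclease gene mut-7 at −0.18 and −0.17 in BB19 and BB2 embryos. None of these 3 passed with a spread of 20% (adjusted p from 0.927 to 1). dcr-1, which encodes Dicer, was in both lists of bound RNA, at 1.70 in each (SE 0.514 in HH76 and 0.266 in HH134).

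Genes of gut granules and of the mitochondrial stress response, where HAF-1 acts, made small moves by the deposited test. With a spread of 20% none was called in either direction in any of the 8 comparisons. Whether the gut granule list covers the granules in which HAF-4 and HAF-9 act was not examined. Of 15 gut granule genes none was called higher and 9 were called lower in BB19 and in BB2 embryos (medians −0.08 and −0.11), beside 16.8% and 16.7% of all genes lower and 13.2% and 18.7% higher; haf-4 and haf-9 were called higher there. The germline markers given above were lower in the same embryos, and their part in these values was not tested. At L4 4 were higher and 3 lower in BB19 and 8 and 1 in BB2, and in the adr-2 strains 1 and 2 in RB886 embryos, 2 and 0 in BB3 embryos and 2 and 1 in each at L4. The shares of all genes called are those given above, 32.3% and 34.6% in BB19 and BB2 and 17.5% and 16.9% in RB886 and BB3 at L4, and in embryos 9.27% higher and 8.93% lower in RB886 and 10.4% and 5.83% in BB3; they stand beside the mitochondrial counts too. Genes with low means are included in these shares. Values in the authors' deposited tables put aps-3 at −0.22 and −0.31 in BB19 and BB2 embryos, the lipid kinase gene ppk-3 at 0.20 and 0.19 at L4 and glo-4, which acts in gut granule formation, at −0.17 and −0.19 at L4. aps-3 was in both lists of RNA bound by ADR-1, at 4.94 (SE 0.685) in HH76 and 3.52 (SE 0.383) in HH134. Of 9 mitochondrial genes 1 was higher and 4 lower in BB19 embryos and 0 and 6 in BB2 embryos, and 4 and 1 in BB19 and 3 and 1 in BB2 at L4. In the adr-2 strains 1 was higher in RB886 embryos and 2 in BB3 embryos with none lower, and 2 and 0 in RB886 and 2 and 1 in BB3 at L4. The chaperone gene hsp-6 stood at 0.20 and 0.25 in BB19 and BB2 at L4, dve-1, a transcription factor of this response, at −0.29 and −0.65 there, and lin-65, a chromatin factor of this response, at −0.14 and −0.31 in BB19 and BB2 embryos. With a spread of 20% the adjusted p of these 6 genes ran from 0.146 to 0.973.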

How the data were processed

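The authors deposited 1 table for each mutant strain and stage, with a line per transcript. The signal in it is, per the file headers, the mean normalised read count of a strain. The fold change is a ratio the authors took over N2, and the p-value and adjusted p are the authors' own. For the pulled-down RNA they deposited a log2 fold change, with its standard error and a test statistic as score columns, for bound genes alone. Bowtie, DESeq and ce10 are named in the submitters' processing notes, without versions or roles. Sheet names write RB668 for RB886.

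The transcript with the highest total of means stood for its gene. A call was made at a deposited adjusted p under 0.05. Medians of the gene and marker lists were taken over members with an N2 mean of at least 10. The added z test took the log ratio of the means, their counting error and an assumed spread of 20% between libraries, with the library numbers of the labels and Benjamini-Hochberg adjustment over all genes (Python 3.11.15, scipy 1.17.1). It was run on simulated data drawn with the same spread and with large changes. That run checks the code, and tests neither the assumed spread nor small changes. Depth per library is unknown. No value per library was used, so replicates could not be compared, and where libraries are not separate cultures the p-values measure only technical spread. Titles carry dates or a set name, some shared between strains, which could not be used with means alone.

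All 8 haf genes are named. Of the other lists the 3 genes are named with the largest change called in both alleles, among N2 means of at least 100; names were matched through sequence names of the WBcel235 annotation, with 20 of 21 RNA interference and 15 of 16 gut granule names found. Alternatives were an adjusted p under 0.01, other adjustments, summed transcripts, pseudocounts of 1 and 10, and centring. Members and lists were chosen with earlier results of these data known.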

Additional observations from a re-analysis of the deposited data

How the results depend on the processing

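No paired analysis was possible because the deposited values are group means, and for the same reason no library could be left out. The numbers of called haf genes were kept within 1.5 times under adjustment over 1 transcript per gene and under a filter on means of at least 10, and under an adjusted p of 0.01 with 1 exception, RB886 at L4, where 1 was called in place of 3. With counting error plus a spread of 20%, for single and for summed transcripts, 0 were called in BB19 and BB2 embryos and in BB19 and BB2 at L4, in place of 4, 5, 4 and 6, and 1 in each of the 4 adr-2 comparisons, in place of 3, 3, 3 and 5, where that 1 is haf-6, whose values chose the family, so that this count is a description. Taking 3 libraries for BB2 embryos, an alternative added after seeing the data, also gave 0. The cause is the larger spread by construction. Of 224 alternative values of the log2 fold changes none reversed a called direction, and 4 moved by more than counting error, all under centring on the median of genes with means of at least 100: haf-3 to −0.03 and −0.01 and haf-9 to 0.51 and 0.53 in BB19 and BB2 embryos. Both lists of bound RNA kept their haf genes at an adjusted p of 0.01 and at a log2 fold change of at least 1. Of the 5 genes most like haf-6, 2 were shared with the 5 at an N2 mean of at least 10 and 1 with the 5 by Pearson correlation.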
